A study of Mus musculus with 6 samples.

Results

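Immune checkpoint genes code for the surface proteins through which tumour cells and antigen-presenting cells raise or restrain the response of T cells and phagocytes. The set described here held 10 genes fixed by name, of 56196 genes in the count table, and all 10 were found there. They were read in 6 mouse osteosarcomas that differ in Skp2, as CPM, read counts scaled to the same total in every library. By textbook roles, 4 were placed on the tumour side (Cd274, Pdcd1lg2, Cd47 and Cd276) and 6 on the leukocyte side (Cd80, Cd86, Vsir, Lag3, Havcr2 and Sirpa). The assignment to a side comes from those roles and was not derived from the counts.

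Both groups carried Osx1-Cre, Rb1lox/lox and p53lox/lox, so that the tumour suppressors Rb1 and Trp53 are removed where the osteoblast-lineage Osx1 (Sp7) promoter drives Cre. The 3 double knockout (DKO) tumours had Skp2 intact, and the 3 triple knockout (TKO) tumours were also SKP2-/-, which removes the gene in every cell of the animal, leukocytes included. Replicate 1 of each group came from a male and replicates 2 and 3 from females, and 3 values of a group are given below in that order (DKO1, DKO2, DKO3 and TKO1, TKO2, TKO3). Ages and the number of animals are not given in the sources used here, and p-values cover only the differences among these 6 tumour samples.

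CD28 on T cells receives an activating signal from CD80 and CD86, while CTLA-4 competes for the same ligands. PD-1 is engaged by PD-L1 (Cd274) and PD-L2 (Pdcd1lg2), LAG-3 binds MHC class II, TIM-3 (Havcr2) binds several ligands including galectin-9, and VISTA (Vsir) is an inhibitory protein carried mainly by myeloid cells. On the phagocyte side, SIRPα (Sirpa) on macrophages binds CD47 on the target cell and restrains engulfment. B7-H3 (Cd276) is a B7-family protein found on many solid tumours, osteosarcoma among them.

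Gene counts per library were 17063231 to 22488819. Skp2 had 20, 64 and 46 counts in DKO and 0 in each TKO library, as labelled. DKO libraries held little RNA of most leukocyte markers: the pan-leukocyte gene Ptprc had 3 counts over all of them, against 501, 1971 and 1732 in TKO. Summed levels of 10 macrophage markers were 8.96, 125 and 92.8 CPM in DKO, where Cd68 alone gave 5.48, 122 and 90.8 CPM and all 3 C1q genes were at 0. They were 950, 2705 and 2229 CPM in TKO. The 6 osteoblast markers summed to 11894, 11305 and 10061 CPM in DKO, nearly all from Col1a1, and to 268, 32731 and 33685 CPM in TKO. Sp7 was at most 7.97 CPM in DKO and at 0 in TKO1, against 206 and 433 CPM in TKO2 and TKO3, while Runx2 was between 58.4 and 241 CPM in all 6. TKO1 stood apart from TKO2 and TKO3, with correlations of log2 CPM across genes of 0.830 and 0.805, against 0.915 between the other two. These are bulk tumours, in which fewer cells of a type and less RNA per cell cannot be told apart.

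Promoter sequences are shown for 3 members whose counts went different ways, since the window around the start is where transcription is switched on. RefSeq promoter windows (250 bases before to 50 after the transcription start, GRCm38.p6) were found for 7 of the 10 members, all but Cd86, Lag3 and Sirpa. The sequences below run 5′ to 3′ on the strand of the gene, with each CpG dinucleotide in capitals. Vsir, which was higher in TKO, lies on the plus strand at chr10:60346601-60346900. Cd47, lower in every TKO library, has 2 overlapping windows on the plus strand, of which the one at chr16:49855404-49855703 is shown; the other starts at 49855411. Both lie inside the annotated gene, whose most upstream transcript starts at 49800533. Havcr2, at chr11:46454681-46454980 on the plus strand, is one whose groups overlapped.
Vsir: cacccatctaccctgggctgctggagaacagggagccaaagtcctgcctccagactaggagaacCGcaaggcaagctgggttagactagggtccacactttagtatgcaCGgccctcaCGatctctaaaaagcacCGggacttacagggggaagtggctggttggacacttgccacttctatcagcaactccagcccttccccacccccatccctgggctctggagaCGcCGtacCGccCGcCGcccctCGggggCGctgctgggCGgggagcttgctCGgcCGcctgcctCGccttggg
Cd47: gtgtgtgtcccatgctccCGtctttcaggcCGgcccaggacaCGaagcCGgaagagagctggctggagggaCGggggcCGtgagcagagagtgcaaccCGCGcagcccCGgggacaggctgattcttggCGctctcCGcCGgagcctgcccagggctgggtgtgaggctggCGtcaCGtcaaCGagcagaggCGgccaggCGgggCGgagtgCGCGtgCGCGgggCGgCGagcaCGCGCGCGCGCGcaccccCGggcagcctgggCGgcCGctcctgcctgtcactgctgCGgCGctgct
Havcr2: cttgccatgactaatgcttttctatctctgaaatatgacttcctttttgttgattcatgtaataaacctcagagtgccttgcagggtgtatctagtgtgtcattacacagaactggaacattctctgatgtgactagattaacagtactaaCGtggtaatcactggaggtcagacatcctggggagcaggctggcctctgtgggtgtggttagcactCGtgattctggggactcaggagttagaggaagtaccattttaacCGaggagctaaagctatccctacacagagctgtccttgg

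The windows differed in CpG content. The Vsir window held 15 CpGs, that of Cd47 35 (36 in its other window) and that of Havcr2 3, beside a median of 7 over the 32851 windows of the table. Among the other members, Cd276 had 39, Cd274 15, and Cd80 and Pdcd1lg2 3 each. Looking at CpGs was decided after the sequences were seen. Of 4 motifs searched on both strands, only the PU.1 and ETS core (GAGGAAG) was found in a member's window, in 13.6% of all windows. It lay 8 bases before the start in Havcr2, and in Cd276 127 bases before the start on the opposite strand. An interferon-response motif (2 GAAA repeats with any 2 bases between them, in 3.44% of all windows), a STAT motif (TTC and GAA with any 3 bases between, 8.3%) and an NF-kB motif (GGGA and TTCC with any 2 bases between, 1.47%) had no match in the 7 members. A match is a description of letters, and binding was not measured.

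The main comparison asked how these genes differ between Skp2-null and Skp2-intact tumours. Of the 10 members, 9 passed the filter on low counts, and 3 of those 9 rose in TKO: Lag3, Vsir and Cd86, all on the leukocyte side. Cd86 passed the filter only through its TKO libraries, so it could come out only as higher in TKO. In edgeR's test 0 fell at an adjusted p of 0.05; 4 of the 9 had an unadjusted p under 0.05, the fourth being Cd47, which DESeq2 called lower. Over all 15361 genes tested, 7.36% were called, 4.89% as higher and 2.47% as lower in TKO. The share of all genes at an unadjusted p under 0.05 is above that 7.36%, and its value is not given. No excess is therefore read from counts at the unadjusted threshold, here or below. The median log2 fold change was 0.07 over the 3 tumour-side members tested and 1.86 over the 6 leukocyte-side members, Cd86 included, beside 0.09 over all genes. TKO and DKO values did not overlap in 5 of the 9, 4 of them higher and 1 lower, beside 32.9% of all genes (17.3% higher and 15.6% lower).

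**Figure D1:**
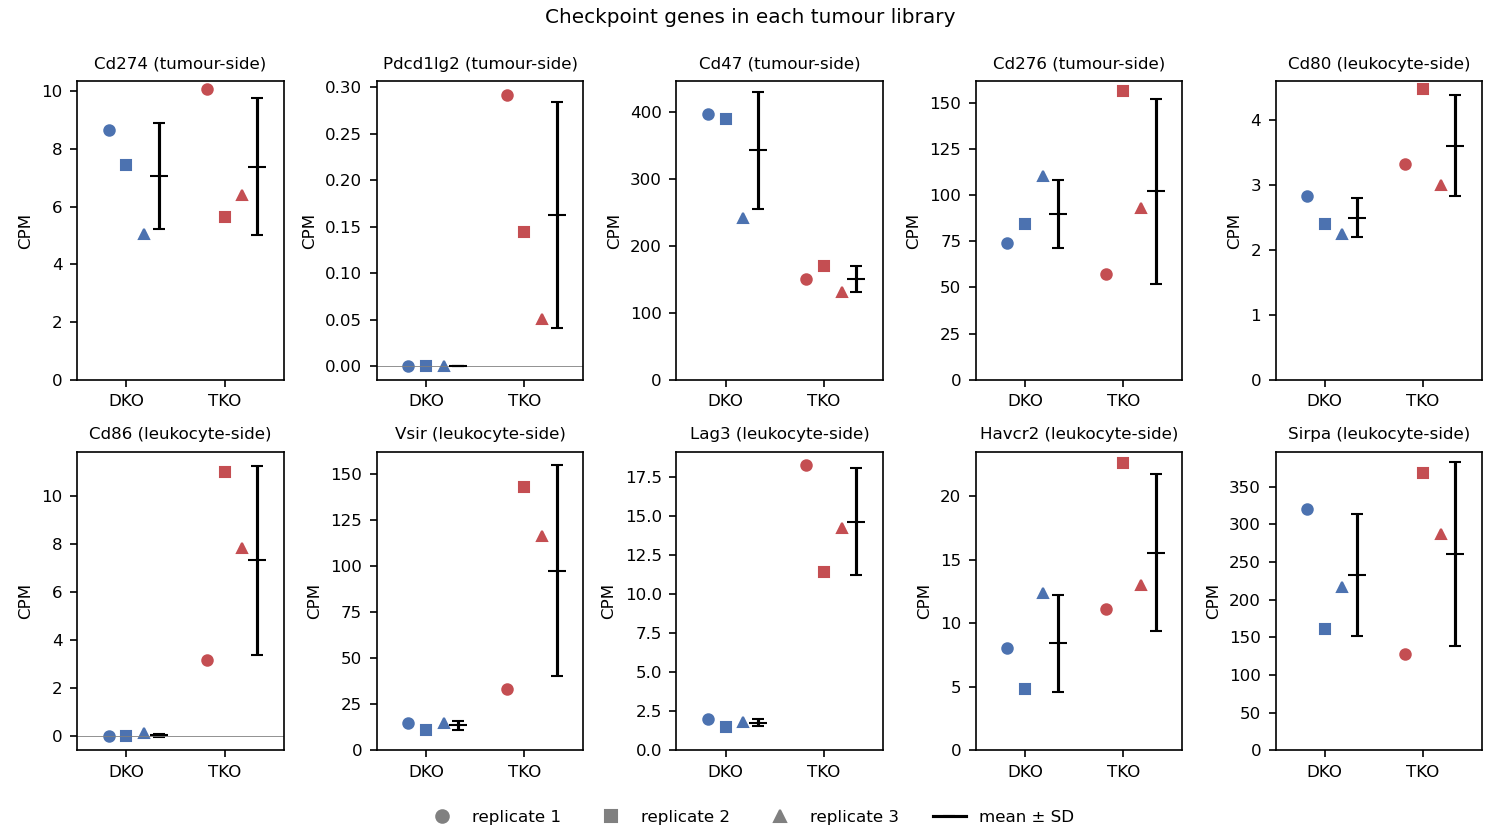
Level of each of the 10 members in each library, in CPM on a linear axis with its own scale per gene. Points are single tumours (circle, square and triangle for replicates 1, 2 and 3), and the black bar is the mean ± SD of 3. Lag3, Vsir and Cd86 sit higher in all 3 TKO tumours, Cd47 sits lower, and Cd274, Cd276, Havcr2 and Sirpa overlap between groups.

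On the tumour side, the PD-1 ligands were scarce. Cd274 (chromosome 19, 29367455 to 29388095), which codes for PD-L1, had 8.66, 7.46 and 5.05 CPM in DKO and 10.1, 5.64 and 6.42 CPM in TKO. The 2 groups overlapped, and the highest library was TKO1. The log2 fold change was 0.07 (SE 0.47, adjusted p = 0.948), with means of 7.06 ± 1.84 CPM in DKO and 7.38 ± 2.37 CPM in TKO (SD, n = 3). Over 14.1% of its exon bases an antisense gene is annotated, and reads there were assigned to neither gene in counting without strand.

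Pdcd1lg2, the neighbouring gene for PD-L2 (chromosome 19, 29410919 to 29471161), was nearly silent. It had 0 counts in each DKO library and 7, 3 and 1 counts in TKO. That is at least 3.22-fold higher in TKO, set against a floor of 3 counts over the DKO group, and the filter on low counts left it out of the test. With no filter its adjusted p was 0.295. Per length, its TKO mean was 0.0828 CPM per kilobase, beside 2.04 for Cd274, and the 2 genes did not overlap in any group.

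Cd47, the signal that restrains phagocytosis, was abundant in all 6 tumours. Its level was 397, 390 and 241 CPM in DKO and 151, 171 and 132 CPM in TKO (chromosome 16, 49800533 to 49915010). Every TKO value lay below every DKO value, and DKO3 was the DKO library closest to the TKO group. The DKO mean was 2.27 times the TKO mean. The log2 fold change of -1.18 (SE 0.30) missed the threshold in edgeR (adjusted p = 0.064) and passed it in DESeq2 (0.00815). Summed endothelial markers were 2.91 to 6.03 CPM in DKO and 99.8 to 571 CPM in TKO, and summed skeletal muscle markers 3.19 to 13.4 and 270 to 8931 CPM. The part of such other cells in the Cd47 values was not tested.

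Cd276, for B7-H3, was abundant in both groups. It had 74.2, 84.5 and 110 CPM in DKO and 57.4, 156 and 92.7 CPM in TKO (chromosome 9, 58524298 to 58555437). Both the lowest and the highest library were TKO tumours, TKO1 and TKO2. Its log2 fold change was 0.19 (SE 0.40, adjusted p = 0.809), with 89.6 ± 18.5 CPM in DKO and 102 ± 50.05 CPM in TKO (SD, n = 3). An antisense gene is annotated over 11.4% of its exon bases.

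On the leukocyte side, the B7 pair split. Cd86 (chromosome 16, 36603869 to 36666081), the ligand of CD28 and CTLA-4 that dendritic cells and macrophages carry, was all but absent from DKO. It had 0, 0 and 2 counts in DKO and 76, 228 and 154 counts in TKO. Its TKO level was 3.17, 11.0 and 7.85 CPM, and the ratio of TKO to DKO was 201 (95% counting interval 55.3 to 1665, edgeR adjusted p = 0.0245). As its TKO counts alone carried it past the filter, the direction of that call was fixed beforehand. Cd80, the second ligand of the same receptors, was present at a low level in every library. Its values were 2.84, 2.40 and 2.26 CPM in DKO and 3.33, 4.48 and 3.01 CPM in TKO (chromosome 16, 38455561 to 38496335). The groups did not overlap, though the gap between DKO1 and TKO3 was small, and the log2 fold change of 0.53 (SE 0.49) did not pass (adjusted p = 0.542). Whether the change in Cd86 differs from that in Cd80 was not tested. Per length, the Cd86 level was 0.961, 2.48 and 2.64 times that of Cd80 in TKO, and at most 0.0532 times in DKO.

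Vsir (chromosome 10, 60346851 to 60372684), the gene of the myeloid inhibitory protein VISTA, had 14.9, 10.9 and 15.0 CPM in DKO. It had 33.2, 143 and 116 CPM in TKO. All TKO tumours lay above DKO, but TKO1 was far below the other two. The mean was 7.17 times higher in TKO, with a log2 fold change of 2.84 (SE 0.56, adjusted p = 0.0333). The Vsir call was lost in limma-voom (0.0635).

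Lag3 (chromosome 6, 124904361 to 124911705), the gene of a T cell inhibitory receptor for MHC class II, had 1.99, 1.53 and 1.84 CPM in DKO. The TKO libraries had 18.3, 11.4 and 14.3 CPM. The groups were well apart, the spread within each was small, and the mean was 8.2 times higher in TKO. The log2 fold change was 3.03 (SE 0.45, adjusted p = 0.0182), the smallest adjusted p among the members. Lag3 was highest in TKO1, where T and NK cell markers were lowest.

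The 3 calls depended on which tumours entered. All 3 were lost when any 1 DKO library was left out, with adjusted p-values of 0.072 to 0.136, and without TKO3 (Cd86 0.0597, Vsir 0.0772, Lag3 0.0525). Without TKO2, Lag3 kept its call (0.0415) and Cd86 (0.0592) and Vsir (0.078) lost theirs; without TKO1 all 3 passed. Over all genes the same omissions left 39, 2 and 0 calls without DKO1, DKO2 and DKO3, 475 without TKO2, 331 without TKO3 and 2385 without TKO1. Without DKO3 edgeR still had 3017 of 16553 genes tested at an unadjusted p under 0.05.

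Havcr2 and Sirpa, both genes of macrophages and dendritic cells, did not pass. Havcr2 (chromosome 11, 46454935 to 46481255), for TIM-3, had 8.02, 4.80 and 12.4 CPM in DKO and 11.1, 22.6 and 13.0 CPM in TKO. DKO3 lay above TKO1, and the log2 fold change was 0.89 (SE 0.51, adjusted p = 0.326). Sirpa (chromosome 2, 129592835 to 129632228), the receptor of CD47, had 320, 162 and 216 CPM in DKO and 128, 368 and 287 CPM in TKO. The lowest of all 6 values was TKO1, and the log2 fold change was 0.16 (SE 0.46, adjusted p = 0.856).

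**Figure D2:**
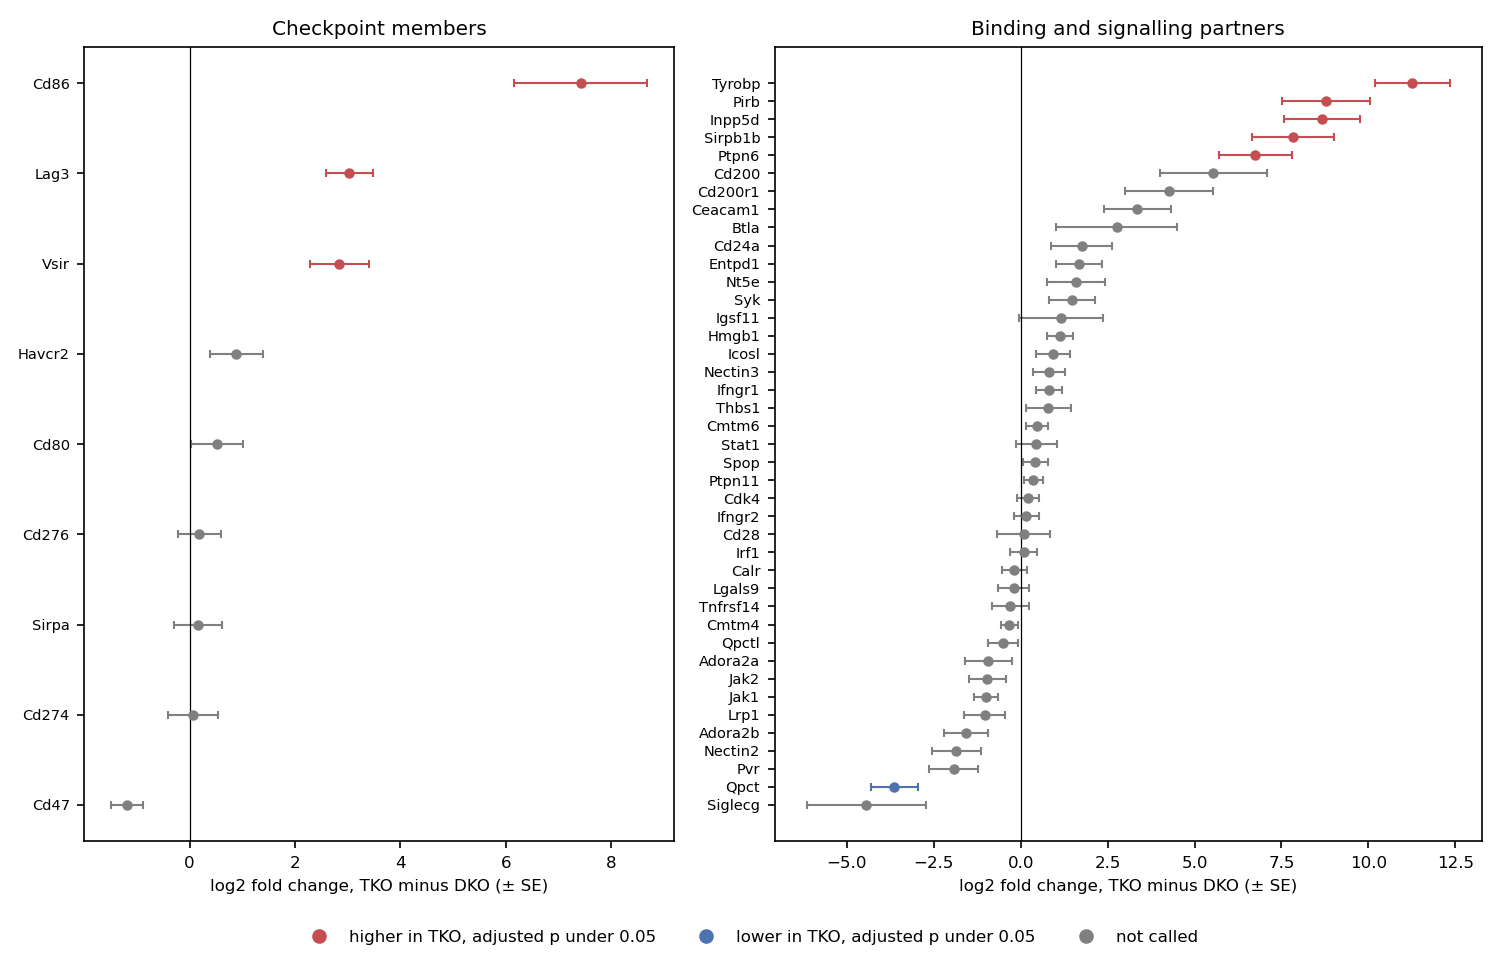
Log2 fold change of TKO over DKO, with its SE as the bar, for the 9 members tested (left) and the 41 partner genes tested (right); red and blue mark calls at an adjusted p of 0.05. Cd86, Lag3 and Vsir are the members called, and the 6 partners called are Tyrobp, Pirb, Inpp5d, Sirpb1b and Ptpn6 (higher) and Qpct (lower).

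Several leukocyte-side genes were read in DKO tumours that held almost no Ptprc. Of the 6, all but Cd86 reached at least 1 CPM in every DKO library. Sirpa was at 162 to 320 CPM there, Vsir at 10.9 to 15.0 CPM and Havcr2 at 4.80 to 12.4 CPM, in libraries with 0, 3 and 0 counts of Ptprc. Cd86 followed Ptprc in this respect, with 2 counts in all DKO libraries. DKO1, with the lowest macrophage marker sum of all 6 libraries, had the highest Sirpa level in its group, 320 CPM. Some other genes known from leukocytes were also read in DKO: Cd68 as above, Syk at 7.72, 46.2 and 51.5 CPM, and Siglecg at 0.0498, 22.1 and 24.3 CPM. Others were at or near 0 there. Itgax and the C1q genes had 0 counts over all DKO libraries, Tyrobp 2, Pirb 3, Inpp5d 7 and Ptpn6 20. Which cells carried these transcripts in DKO was not measured.

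Within TKO, 5 of the 6 leukocyte-side members were highest in TKO2, which also had the highest macrophage, pan-leukocyte, T and NK, dendritic, B cell and neutrophil marker sums. Lag3 was the exception. T and NK markers summed to 3.13, 30.5 and 19.8 CPM in TKO and to at most 0.119 CPM in DKO, where 11 of 13 were at 0. Dendritic markers summed to 6.37 to 16.8 CPM in DKO and 23.2 to 42.7 CPM in TKO. Zbtb46 alone gave 6.03, 8.69 and 15.7 CPM of the DKO sums and did not pass (log2 fold change 0.11, adjusted p = 0.950), while Itgax was at 0 in DKO and at 16.5 to 22.3 CPM in TKO. B and plasma cell markers ran the same way, at 55.9, 142 and 80.1 CPM in TKO. Neutrophil markers were at 12.5, 48.1 and 16.0 CPM there. Red cell markers alone shared the order of Lag3, at 1158, 88.8 and 459 CPM in TKO. In DKO they summed to 0.498, 1.18 and 1.01 CPM. B and plasma cell markers (at most 0.358 CPM) and neutrophil markers (at most 2.09 CPM) were also low in DKO, as were the endothelial and muscle markers above. With 3 libraries the orders within TKO are descriptions, and the part of blood or T cells in the Lag3 values was not tested.

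**Figure D3:**
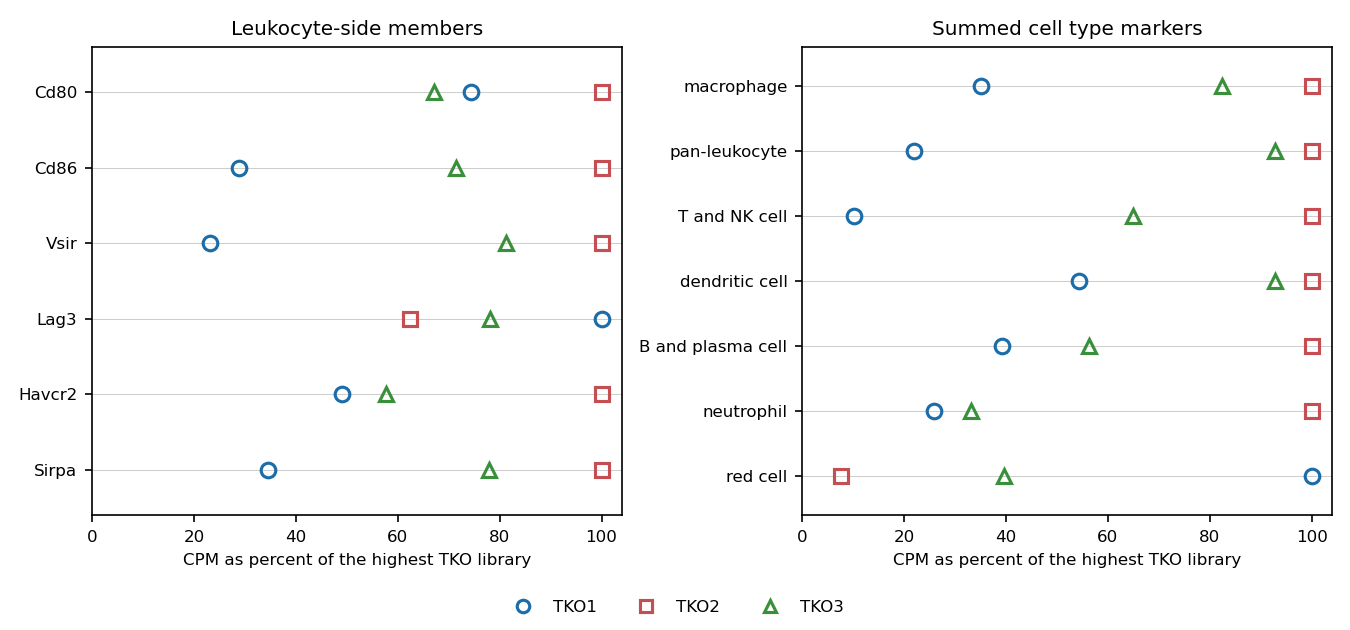
Levels in the 3 TKO tumours as a percent of the highest of them (CPM), for the 6 leukocyte-side members (left) and for summed markers of 7 cell classes (right). TKO1 is low for Cd86, Vsir, Havcr2 and Sirpa and for the leukocyte marker sums, while Lag3 and the red cell markers are highest there.

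Set against the macrophage markers, the members behaved differently. Per 100 CPM of summed macrophage markers, Sirpa stood at 13.4, 13.6 and 12.9 CPM in TKO, a range of 1.06 times, while its plain level ranged 2.89 times. Cd86 stood at 0.333, 0.407 and 0.352, within 1.22 times, against 3.47 times for its level. Both genes thus kept a near-constant share in 3 libraries whose marker sums ranged 2.85 times. Vsir stood at 3.49, 5.28 and 5.21 and Havcr2 at 1.17, 0.834 and 0.583. Lag3 ranged most, at 1.93, 0.423 and 0.640, followed by Cd80 at 0.351, 0.166 and 0.135. In DKO the macrophage sum was mostly Cd68, so no such ratio was formed there. Sirpa did not follow that sum in DKO, with 320, 162 and 216 CPM beside macrophage sums of 8.96, 125 and 92.8 CPM.

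Levels of different genes were compared per kilobase of merged exons. In DKO, Cd47 led with 54.6 ± 14.0 CPM per kilobase, ahead of Sirpa at 47.4 ± 16.4 and Cd276 at 24.5 ± 5.06 (SD, n = 3). Cd47 and Sirpa overlapped, and both lay above Cd276 in every DKO library. Havcr2, Vsir and Cd274 followed at 3.09, 2.71 and 1.95, each overlapping the next, then Lag3 at 0.848 and Cd80 at 0.675, also overlapping. Cd86 and Pdcd1lg2 came last. In TKO the order was Sirpa (53.1 ± 24.9), Cd276 (27.9 ± 13.7), Cd47 (24.1 ± 3.11) and Vsir (19.4 ± 11.4), none separated from the next. Lag3 at 6.95 ± 1.64 and Havcr2 at 5.72 ± 2.26 overlapped, and both lay above Cd274, Cd86 and Cd80, which were at 2.04, 2.00 and 0.975. Neighbours in the order whose ranges did not overlap in TKO were only Havcr2 over Cd274 and Cd80 over Pdcd1lg2.

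The ratio of Cd47 to the gene of its receptor was lower in TKO2 and TKO3 than in any DKO tumour. Per length, Cd47 stood at 0.970, 1.89 and 0.873 times the level of Sirpa in DKO. It stood at 0.924, 0.363 and 0.359 times in TKO. TKO1 lay within the DKO range and the other TKO tumours below it.

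**Figure D4:**
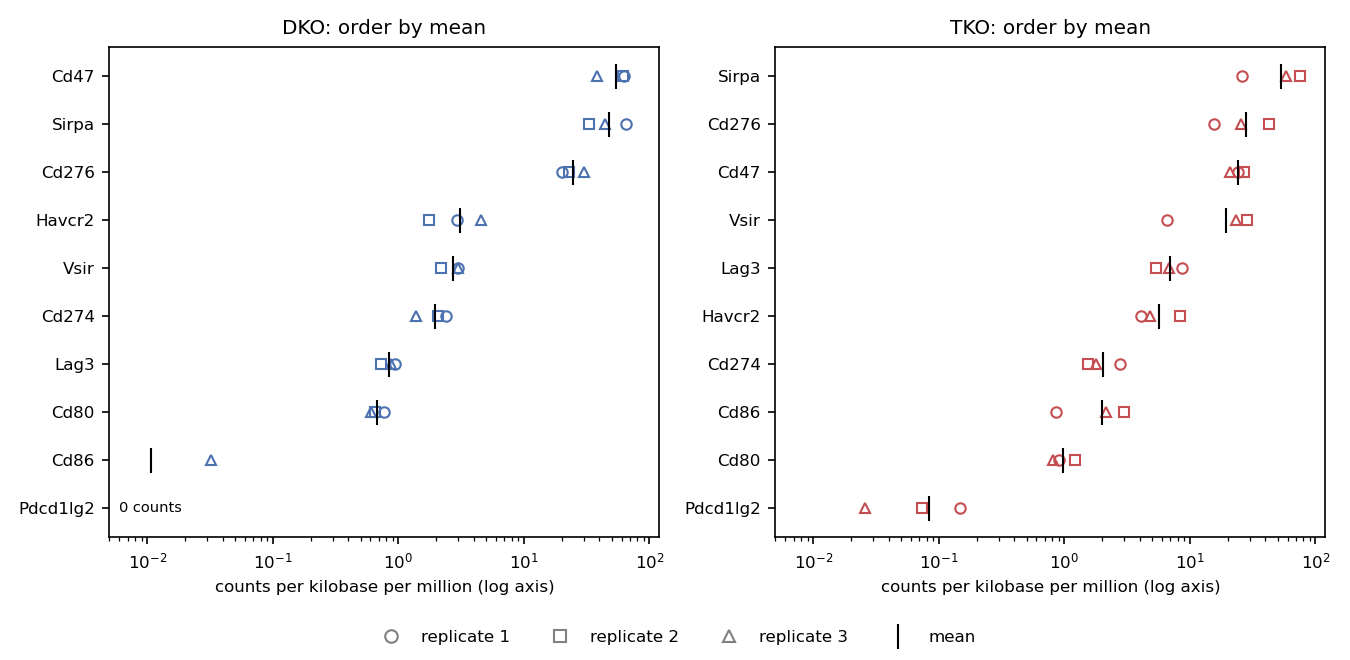
Members ordered by their mean level per length in DKO (left) and TKO (right), in CPM per kilobase of merged exons on a log axis. Open symbols are single tumours and the bar is the mean of 3; libraries at 0 cannot be drawn on this axis (Pdcd1lg2 in all DKO, Cd86 in DKO1 and DKO2). By mean, Cd47 leads in DKO and lies below Sirpa and Cd276 in TKO, and Vsir and Lag3 move up. In single tumours, Sirpa lies above Cd47 in DKO1 and DKO3, and Cd47 lies above Cd276 in TKO1.

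Partner genes were taken from a list of 56 that bind, signal for or regulate the members. Of these, 41 passed the count filter, 5 rose and 1 fell, and 35 did not pass, beside 7.36% called over all genes. Among the risers, Tyrobp, Inpp5d, Pirb and Sirpb1b passed the filter only through TKO libraries, so they could be called only as higher. Their median log2 fold change was 0.45, against 0.09 over all genes. All 6 calls were lost when any 1 DKO library was left out (adjusted p-values of 0.0545 to 0.107 for these 6), and 12, 4 and 3 partners were called without TKO1, TKO2 and TKO3. Signalling molecules of leukocyte receptors made up 3 of the 5 risers. Tyrobp (DAP12), the adaptor of activating myeloid receptors, had a ratio of 2760 (95% counting interval 764 to 22797; adjusted p = 0.0111), with 37.5, 117 and 151 CPM in TKO and 2 counts in DKO. Inpp5d (SHIP1), an inositol phosphatase of blood cells, had 54.8 ± 24.7 CPM in TKO against 0.136 ± 0.193 CPM in DKO (adjusted p = 0.0144). Ptpn6 (SHP-1), the phosphatase recruited by SIRPα and other inhibitory receptors in blood cells, had 39.6 ± 25.8 against 0.365 ± 0.273 CPM (adjusted p = 0.021). Ptpn11 and Syk are named here after their values were seen. Ptpn11 (SHP-2), the broadly expressed relative of Ptpn6, had 213 ± 27.1 against 166 ± 31.3 CPM (adjusted p = 0.445). Syk, a kinase downstream of Tyrobp, had 35.2 ± 23.9 CPM in DKO and 96.8 ± 25.6 CPM in TKO (0.224).

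Among 9 phagocytosis-axis genes tested, 2 rose and 1 fell. Pirb, an inhibitory receptor for MHC class I on myeloid cells, had 9.34, 44.6 and 22.5 CPM in TKO and 3 counts in DKO, a ratio of 466 (159 to 2260; adjusted p = 0.0181). Sirpb1b, a relative of Sirpa, was at 0 in DKO and at least 26.6-fold higher in TKO (adjusted p = 0.0306). Reads that fit several members of the Pir or Sirp families were not counted, which can lower the counts of Pirb, Sirpb1b and Sirpa. Qpct fell from 140, 173 and 141 CPM in DKO to 2.83, 17.7 and 15.8 CPM in TKO. QPCT codes for a secreted glutaminyl cyclase, and its Golgi relative QPCTL modifies CD47 so that SIRPα can bind. The Qpct log2 fold change was -3.64 (SE 0.67, adjusted p = 0.0297), and Qpctl itself had 12.1 to 30.7 CPM in DKO and 11.5 to 17.7 CPM in TKO (adjusted p = 0.501). Siglecg, an inhibitory lectin of leukocytes named after its values were seen, had 0.0498, 22.1 and 24.3 CPM in DKO and 0.208, 1.35 and 0.561 CPM in TKO. DESeq2 called it lower (0.0102), and edgeR (0.167) and limma-voom (0.593) did not.

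Of 24 receptors and ligands of T cell checkpoints, 13 could be tested and 0 passed in edgeR. At an unadjusted p under 0.05 there were 6, with no share of all genes to set beside them. DESeq2 called 4 of them, Cd200 (0.000397), Cd200r1 (0.00169), Ceacam1 (0.00296) and Hmgb1 (0.0349), and limma-voom the first 3 (0.0305, 0.0377 and 0.045), all higher in TKO. Over all 15361 genes DESeq2 called 2893, against 1131 in edgeR. Cd200, which restrains myeloid cells through CD200R1, had 6.87, 0 and 0.594 CPM in DKO and 77.4, 93.7 and 179.6 CPM in TKO (adjusted p = 0.0793). Ceacam1, a TIM-3 ligand, had 0.362 ± 0.439 CPM in DKO and 3.76 ± 1.14 CPM in TKO (adjusted p = 0.0855), and Cd200r1 0.204 ± 0.311 and 4.08 ± 1.67 CPM (0.0925). Pvr, Nectin2 and Nectin3, ligands of TIGIT, are named here after their values were seen. Pvr had 171, 398 and 219 CPM in DKO and 137, 49.4 and 20.0 CPM in TKO (adjusted p = 0.155, and 0.0259 without TKO1). Nectin2 had 28.2, 75.2 and 59.1 CPM in DKO and 3.67, 21.9 and 19.3 CPM in TKO (adjusted p = 0.161, and 0.0309 with sex as a covariate). With that covariate the smallest edgeR adjusted p over all genes also fell, to 0.00403 from 0.0111. Nectin3 had 48.0, 24.3 and 15.8 CPM in DKO and 56.4, 37.5 and 61.0 CPM in TKO (adjusted p = 0.317). Neither DESeq2 nor limma-voom called Pvr, Nectin2 or Nectin3. Without TKO1, where Pvr passed, calls over all genes also rose, to 2385 from 1131.

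Receptors on T cells that these ligands address had few counts, and were also named after their values were seen. Pdcd1, for PD-1, had 0, 0 and 1 counts in DKO and 3, 33 and 11 counts in TKO, most of them in TKO2. Ctla4 had 0 counts in DKO and 1, 0 and 2 counts in TKO. Tigit had 0, 0 and 2 counts in DKO and 84, 18 and 5 counts in TKO, so that TKO1, at 3.50 CPM, held most of them. Ifng, the main inducer of PD-L1, had 0 counts in all 6 libraries, which allows up to 3 counts a library.

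Apart from Ifng, genes that act on the stability or induction of PD-L1 were expressed throughout, and 0 of the 10 tested passed in edgeR. DESeq2 and limma-voom also called 0 of them, and in edgeR 1 had a p under 0.05 before adjustment. Jak1, a kinase of interferon receptors, had 382 ± 78.1 CPM in DKO and 191 ± 60.6 CPM in TKO (adjusted p = 0.128, and 0.0437 without TKO1). Leaving out TKO1 also raised the calls over all genes, to 2385 from 1131. Jak2, the partner of Jak1, had 205 ± 91.9 and 105 ± 66.5 CPM (0.307), and Ifngr1, a chain of the interferon-γ receptor, 75.7 ± 20.8 and 133 ± 44.3 CPM (0.22). Of 4 adenosine-pathway genes tested 0 passed in edgeR, DESeq2 or limma-voom, and 2 had an unadjusted p under 0.05 in edgeR. Entpd1 (CD39), which starts the breakdown of extracellular ATP, had 12.8 ± 10.6 CPM in DKO and 40.8 ± 18.1 CPM in TKO (adjusted p = 0.173). Nt5e (CD73), which completes it to adenosine, had 15.1 ± 4.39 and 45.4 ± 52.3 CPM (0.286), and the adenosine receptor gene Adora2b 6.15 ± 1.71 and 2.06 ± 1.36 CPM (0.187). TKO2 alone carried the high Nt5e mean, with 105.6 CPM.

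For the 4 tested members whose groups overlapped, the genes with the most similar pattern were found by Pearson correlation of log2 CPM over the 6 libraries. They were Psmg1, Zbtb8os and Fam169b for Cd274 (0.995, 0.994 and 0.983), and Rhbdd3, Mcf2l and Parp3 for Cd276 (0.971, 0.967 and 0.966). For Havcr2 they were Galnt10, Sdhd and Poldip2 (0.993, 0.984 and 0.977), and for Sirpa Atp6v0e, Tfpt and Riox2 (0.990, 0.988 and 0.987). All points share the same 6 libraries, the best of many genes was taken, and no p is given. No such value is given for the 5 members whose groups did not overlap, since the 2 groups form separate clusters.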

How the data were processed

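RNA from about 100 mg of each tumour was enriched with oligo(dT) beads and read on an Illumina HiSeq instrument, as the labels' protocols say. The authors deposited raw counts of reads per gene; STAR 2.6.1 and mm10 are named per the submitters' processing notes, with no annotation release in the sources used here. The unstranded counts were used, since the labels' protocols describe no strand mark, and the series table held the same values as the library files (0 genes differed). Reads in no gene (5.33 to 9.3% of a file) and in several genes (5.1 to 6.53%) stayed out of library sizes. Of 56196 IDs, 55154 matched a symbol in GENCODE M21 (GRCm38), from which positions and exon lengths come.

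Counts were filtered by filterByExpr (minimum count 10), scaled by TMM and tested by edgeR's quasi-likelihood test (edgeR 4.0.16, R 4.3.3) in all 6 libraries with no covariate, with Benjamini-Hochberg adjustment over all 15361 genes and a threshold of 0.05. Adjusted p-values are edgeR's except where DESeq2 or limma-voom is named. CPM are per effective library size; the SE of a log2 fold change comes from the fold and the F statistic. The correlations between libraries used log2 CPM with a prior count of 2. A group at 0 was set to 3 counts, and 95% intervals cover counting error only. The alternatives were RLE factors, library totals, no filter, DESeq2 1.42.0, limma-voom (limma 3.58.1), each library left out, a replicate block, sex as a covariate and the counts of the other strand column.

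The members and lists were chosen with earlier results of these data known. Named genes were all members, every partner past 0.05, up to 3 partners with the smallest p in each class, and the 3 genes most like a tested member, which the report gives only for the 4 members whose groups overlapped. The marker lists cover macrophages, all leukocytes, T and NK, dendritic, B and plasma cells, neutrophils, endothelium, muscle, red cells and osteoblasts.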

Additional observations from a re-analysis of the deposited data

How the results depend on the processing

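The 3 members called with all libraries were also 3 under RLE factors, library totals, no filter, sex as a covariate and the counts of the other strand column. DESeq2 called 4, with Cd47 the addition, and limma-voom 2. Under the replicate block 0 members were called (4 at an unadjusted p under 0.05 in edgeR; smallest adjusted p 0.0577, for Lag3), 3 partners instead of 6, and 295 genes instead of 1131. Same-numbered libraries did not deviate together (correlations of -0.007, 0.009 and -0.017), so the numbers give no pairing. Leaving out 1 library gave 0 to 3 members, 0 to 12 partners and 0 to 2385 genes. Without any 1 DKO library, where 0 members passed, 4 had an unadjusted p under 0.05 in edgeR. DESeq2 called 11 partners and 2893 genes. No sign reversed among called members or partners; of 126 values of members under an alternative, 18 lost a call and 1 gained one, and of 572 values of partners 27 and 12. The fold of Cd274, Cd276 and Sirpa changed sign, uncalled, when certain libraries were left out: Cd274 -0.10 without DKO3 and -0.23 without TKO1, Cd276 -0.25 without TKO2, Sirpa -0.06 without DKO2 and -0.16 without TKO2. Over all settings the median log2 fold change ran from -0.25 to 0.16 on the tumour side and was above 0 in each of them on the leukocyte side, at most 2.10. The cause was not tested. Depth limits Pdcd1lg2, Cd86 in DKO, Pdcd1 and Ctla4, which rest on few counts, and 3 tumours a group limit every other gene.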
